A study of Drosophila melanogaster with 4 samples.

Results

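The genes described here code for larval storage proteins and other secreted products of the larval fat body of *Drosophila melanogaster*. They were taken by name, and comprise the larval serum protein genes Lsp1alpha, Lsp1beta, Lsp1gamma and Lsp2, the fat body protein genes Fbp1 and Fbp2, and the apolipoprotein genes apolpp and Apoltp. All 8 were found by FlyBase identifier among the 14885 genes of the count tables, had reads in all 4 libraries, and passed the filter on low counts that left 9059 genes for testing. RNA came from the eye-antennal imaginal disc, the larval epithelium that forms the adult eye, antenna and head capsule, of wandering third-instar larvae. A single library was made from each wild-type strain, Canton S and RAL-208, which the submitters regard as biological replicates. The mutant carried the allele gl[60j] of glass, the gene of a DNA-binding regulator of photoreceptor development, and gave 2 libraries that are technical replicates of each other. Nothing in the labels gives the age in hours, how many discs or larvae went into a library, or the genetic background of the mutant stock. Effects of that background and of the glass allele cannot be told apart.

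The fat body is the insect's organ of storage and secretion, with roles shared in vertebrates by liver and adipose tissue. In the last larval instar it secretes large amounts of larval serum proteins, called hexamerins because they assemble as hexamers, into the haemolymph. Before metamorphosis it takes them back up as a store of amino acids. Lsp1alpha, Lsp1beta and Lsp1gamma code for the subunits of larval serum protein 1, and Lsp2 codes for the subunit of a separate hexamer. Fbp1 codes for the receptor through which the fat body recovers hexamerins, and Fbp2 for a relative of alcohol dehydrogenase. In fat body, Fbp1 is known as a gene induced by the steroid hormone ecdysone late in the third instar. The product of apolpp is cleaved to the apolipophorins of lipophorin, the main lipid carrier of haemolymph. Apoltp codes for the apolipoprotein of the lipid transfer particle, which loads lipophorin with lipid.

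Gene reads numbered from 11292175 to 27044633 per library, and levels are given as CPM, that is reads scaled to a common total of gene reads per library. The targeted gene gl had 299 CPM in Canton S and 235 in RAL-208, and 105 and 108 in mutant discs. All 21 genes of the eye-antennal disc list, which include gl itself as well as ey, so, dac and Dll, had reads in every library, and their summed level lay between 3860 and 4009 CPM. The sum hides changes in both directions. Both mutant libraries lay below both strains in 8 of the 21, against 41% of all tested genes. They lay above both in 9, against 26.2%. In bulk RNA, fewer cells of a type and less RNA per cell cannot be told apart, and this holds for each difference below.

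Together the 8 genes held 2.11% of the gene reads for Canton S, 1.23% for RAL-208, and 0.299% and 0.290% for the mutant libraries. The mean over both strains was 5.68-fold above that of the mutant libraries, and with 1 mutant sample against 2 wild types an exact permutation test cannot give a p below 0.333. The genes did not behave as a single group. The 3 Lsp1 genes and both apolipoprotein genes were lower in the mutant than in either strain, whereas Lsp2, Fbp1 and Fbp2 were far lower in RAL-208 than in Canton S, with the mutant between the strains. Over all tested genes, both mutant libraries lay below both strains in 41% and between the strains in 15.9%, and they lay between with Canton S at least 2-fold above RAL-208, as Lsp2, Fbp1 and Fbp2 did, in 1.78%.

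**Figure D1:**
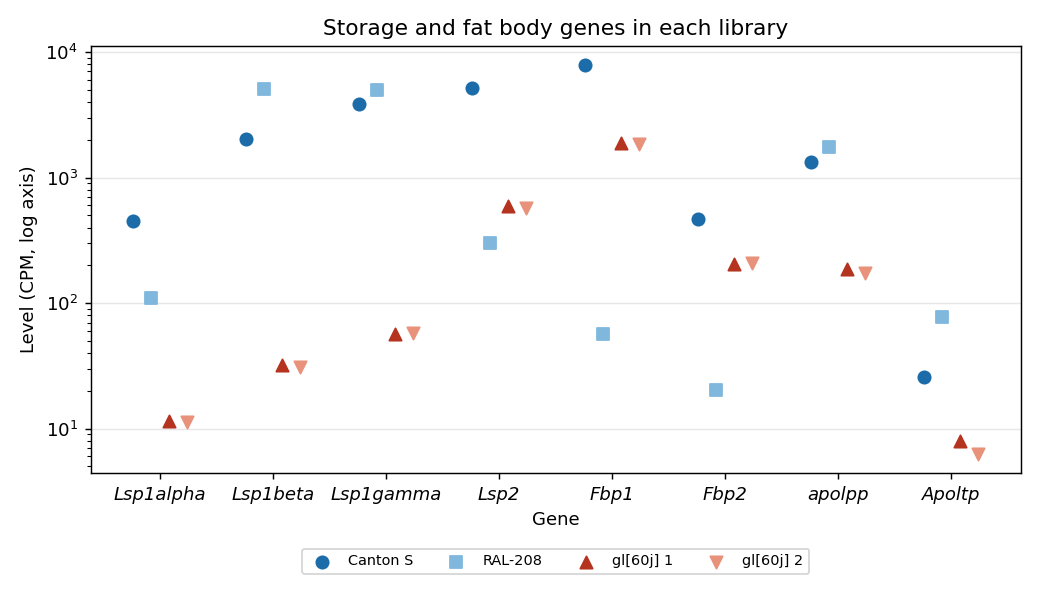
Level of each of the 8 genes in each library, in CPM on a logarithmic axis, with 1 symbol per library. The mutant symbols lie below both wild-type symbols for the Lsp1 genes, apolpp and Apoltp, while RAL-208 is the lowest library for Lsp2, Fbp1 and Fbp2.

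Larval serum protein 1 genes had the largest ratios of the wild-type mean to the mutant mean among the 8, at 113 for Lsp1beta, 76.8 for Lsp1gamma and 24.5 for Lsp1alpha. Lsp1gamma (FBgn0002564) reached 3841 CPM in Canton S (46546 reads) and 4944 in RAL-208 (58364 reads), while the mutant libraries had 56.7 (640 reads) and 57.7 (1561 reads). Both strains were high and close to each other, and the groups did not overlap. Lsp1beta (FBgn0002563) stood at 2043 CPM for Canton S and 5065 for RAL-208, against 31.9 and 31.1 for the mutant. The strains differed 2.48-fold for this gene (95% interval 2.44 to 2.52, for counting error only), with RAL-208 the higher, and both lay far above the mutant. Lsp1alpha (FBgn0002562) was less abundant, with 448 CPM for Canton S and 109 for RAL-208, against 11.5 and 11.2 for the mutant. Here Canton S was the higher strain, 4.11-fold (3.86 to 4.37), so the subunit genes of this protein differed between strains in opposite directions.

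As a result the size of the deficit in the mutant depended on the strain it was set against. Against Canton S the pooled mutant reads were 65.3-fold lower for Lsp1beta, 66.9-fold for Lsp1gamma and 39.6-fold for Lsp1alpha. Against RAL-208 the same ratios were 162, 86.1 and 9.64. The fitted log2 fold change, from edgeR's quasi-likelihood test with both mutant libraries summed to 1 sample, was -6.75 (SE 0.87) for Lsp1beta, -6.18 (SE 0.29) for Lsp1gamma and -4.55 (SE 1.18) for Lsp1alpha. Ranked from the most negative value, these were the 9th, 16th and 44th of the 9059 tested genes. Their adjusted p-values in edgeR were 0.209, 0.182 and 0.240, so none passed the threshold of 0.05. In that design the spread rests on 1 residual degree of freedom, from the strains alone.

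Lsp2 (FBgn0002565), the other hexamerin gene, did not follow this order. Canton S had 5157 CPM, RAL-208 had 302, and the mutant libraries 598 and 573. Canton S was 17.1-fold above RAL-208 (16.5 to 17.6), and the mutant was 8.89-fold below Canton S but 1.92-fold above RAL-208. The wild-type mean of 2729.7 ± 3433 CPM (SD, n = 2) therefore spans the mutant value, and the fitted log2 fold change was -2.17 (SE 1.87, edgeR adjusted p 0.636). Without Canton S it turned to 1.02, and without RAL-208 it was -3.09. In the BDGP6 annotation 84.6% of the exon bases of Lsp2 are shared with the antisense RNA gene asRNA:CR11538, which is not analysed here. Without knowledge of the strand setting, reads of that RNA cannot be told apart from reads of Lsp2.

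Fbp1 (FBgn0000639), the hexamerin receptor gene, differed most between the strains. Canton S had 7835 CPM, RAL-208 had 56.8, and the mutant libraries 1894 and 1839.8. The groups overlapped, with the strains at both ends. The ratio of Canton S to RAL-208 was 138 (128 to 149), which ranked 1st among the 7002 genes with a mean of at least 10 CPM in wild type. In Canton S it was the 2nd most abundant tested gene, and in RAL-208 the 3537th. The mutant was 4.22-fold below Canton S and 32.7-fold above RAL-208.

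Fbp2 (FBgn0000640) had the same order of libraries at a lower level, with 465 CPM for Canton S, 20.2 for RAL-208, and 206 and 209.6 for the mutant. Canton S exceeded RAL-208 by 23.0-fold (20.2 to 26.3), the 8th ratio in that ranking, while Lsp2 was 13th. The mutant was 2.23-fold below Canton S and 10.3-fold above RAL-208. For neither gene can a direction between genotypes be given. The fitted log2 fold change was -1.02 (SE 2.63) for Fbp1 and -0.15 (SE 1.79) for Fbp2, with edgeR adjusted p-values of 0.888 and 0.978. Without Canton S the values were 5.11 and 3.44, without RAL-208 -2.01 and -1.09, and limma-voom on all columns gave 1.55 and 1.17. Each strain had 1 library, so the difference between strains has no replicate check. On the scale of CPM plus 1, 4 of the 8 genes (Lsp1alpha, Lsp2, Fbp1 and Fbp2) were higher in Canton S by 2-fold or more, against 2.9% of all tested genes. The reverse held for Lsp1beta and Apoltp, against 2.89%.

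**Figure D2:**
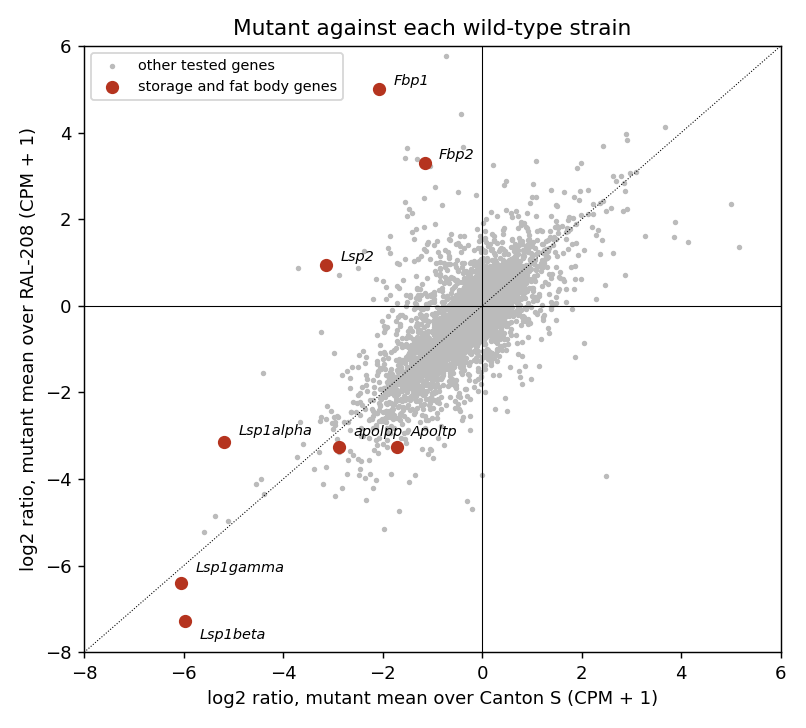
Log2 ratio of the mean of both mutant libraries to Canton S (horizontal axis) and to RAL-208 (vertical axis) for the 9059 tested genes, on the scale of CPM plus 1, with the 8 genes in red. The dotted line marks equal ratios, and both axes share the mutant libraries. The Lsp1 genes, apolpp and Apoltp lie at the lower left, while Lsp2, Fbp1 and Fbp2 lie in the upper left, lower than Canton S and higher than RAL-208.

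The apolipoprotein genes were lower in the mutant than in both strains, with ratios of the wild-type mean to the mutant mean of 8.50 for apolpp and 7.21 for Apoltp. The lipophorin gene apolpp (FBgn0087002) had 1329 CPM in Canton S and 1745 in RAL-208, against 188 and 173 for the mutant. Both strains were high and the groups did not overlap. The strains differed 1.31-fold for this gene, and the mutant was 7.48-fold below Canton S and 9.82-fold below RAL-208. Apoltp (FBgn0032136) was rare, with 25.8 CPM for Canton S, 77.3 for RAL-208, and 7.97 (90 reads) and 6.32 (171 reads) for the mutant. All of these are low levels, and the groups did not overlap. RAL-208 was 2.99-fold above Canton S (2.63 to 3.41), and the mutant lay 3.79-fold below Canton S and 11.3-fold below RAL-208. The log2 fold change was -3.04 (SE 0.25) for apolpp and -2.84 (SE 0.84) for Apoltp, with edgeR adjusted p-values of 0.182 and 0.262. Lsp1alpha, Lsp1beta, Lsp1gamma, apolpp and Apoltp were the 5 of the 8 for which each mutant library was below each strain by 2-fold or more on the scale of CPM plus 1, which held for 5.63% of all tested genes. The opposite, each mutant library above each strain by 2-fold or more, held for 0 of the 8 and for 1.07% of tested genes.

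No gene was called by edgeR with summed mutant libraries, neither among the 8 nor among all 9059 (0%). At an unadjusted p under 0.05 the same 5 genes were lower in that fit, as were 10.2% of all tested genes, and 0 of the 8 were higher, against 6.44%. Limma-voom called 0 genes, and at an unadjusted p under 0.05 it placed 4 of the 8 lower (all but Apoltp of those 5), against 11.6% of tested genes, and 0 higher, against 8.26%. DESeq2 on the same columns called those 5 genes lower, against 4.28% of tested genes, and 0 higher, against 1.68%, with adjusted p-values from 6.07e-225 for Lsp1gamma to 0.0451 for Lsp1alpha. Entering the mutant libraries as separate samples, edgeR called the same 5 lower, against 11.3% of tested genes, and 0 higher, against 8.05%, with adjusted p-values from 0.00505 for Lsp1gamma to 0.0417 for Apoltp. Since those libraries are technical replicates of 1 sample, p-values of this last fit are too small. DESeq2 had the same summed columns as the edgeR and limma-voom fits that called 0 genes, with 1 residual degree of freedom. Its small p-values thus depend on the tool and are no firmer than that design allows. The 3 genes with the mutant between the strains were called by none of these fits.

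The technical replicates of the mutant lay close together for every gene. The ratio of the first mutant library to the second ran from 0.982 for Fbp2 and Lsp1gamma to 1.26 for Apoltp, whose 95% counting interval was 0.965 to 1.64. For Lsp2 (1.04), Fbp1 (1.03) and apolpp (1.09) the interval lay above 1 (1.01 to 1.07, 1.01 to 1.05 and 1.03 to 1.15). The smallest ratio between the pooled mutant and either strain was 1.92, for Lsp2 against RAL-208.

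The make-up of the summed reads of the 8 genes separated the libraries further. Fbp1, Lsp2 and Fbp2 together held 63.6% of them for Canton S, 3.08% for RAL-208, and 90.1% and 90.4% for the mutant libraries. The Lsp1 genes held 29.9%, 82.1%, 3.34% and 3.45% in the same order, and apolpp held 6.29%, 14.2%, 6.29% and 5.97%. Fbp1 alone was the largest share in Canton S (37.1%) and in the mutant (63.3% and 63.4%), and Lsp1beta the largest in RAL-208 (41.1%).

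**Figure D3:**
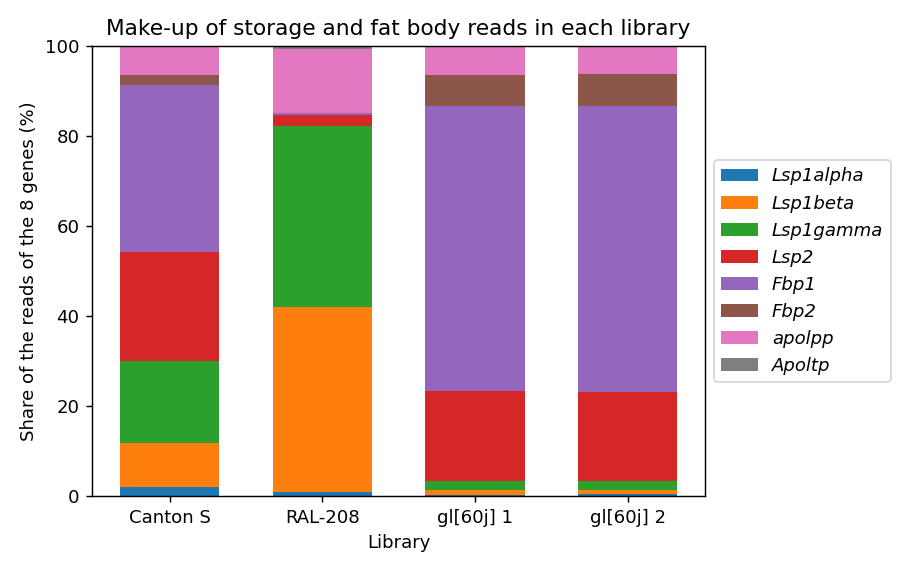
Share of each gene in the summed reads of the 8 genes, in percent, for each library. Fbp1 takes 63.3% and 63.4% in the mutant libraries and 0.461% in RAL-208, where Lsp1beta and Lsp1gamma together fill most of the bar.

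Levels of different genes were compared per kilobase of coding sequence, with coding lengths from 768 bases for Fbp2 to 12999 bases for Apoltp taken from the BDGP6 annotation. On the scale of CPM per coding kilobase, Fbp1 (2538) and Lsp2 (2452) led in Canton S, ahead of Lsp1gamma (1658). In RAL-208 Lsp1beta (2139.7) and Lsp1gamma (2135) stood level, and Fbp1 (18.4) was above Apoltp (5.94) alone. In the mutant Fbp1 led at 614 and 596, followed by Lsp2 (284 and 272) and Fbp2 (268 and 273), whose order differed between the technical replicates. Coding length leaves out other exon bases, with 768 coding of 1074 exon bases for Fbp2 and 2103 of 2477 for Lsp2. The order of genes this close depends on the length used. Apoltp was the lowest of the 8 in every library.

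Within larval serum protein 1, the ratio of Lsp1beta to Lsp1gamma per coding kilobase was 0.520 for Canton S, 1.002 for RAL-208, and 0.550 and 0.527 for the mutant. The mutant values lay nearer to that of Canton S. The ratio of Lsp1alpha to Lsp1gamma was 0.110, 0.0209, 0.192 and 0.184 in the same order. The ratio of Fbp1 to Lsp2 was 1.04 for Canton S, 0.128 for RAL-208, and 2.16 and 2.19 for the mutant. These ratios have no replicate check within a strain, and reads of the Lsp1 paralogs that align to more than 1 of them may be missing from all 3.

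Over the 4 libraries the genes were also compared by the Euclidean distance between their log2(CPM + 1) profiles, each centred on its mean. These libraries hold 3 independent samples, so the distances describe the libraries and no more. Of the 28 pairs of the 8 genes, Lsp1beta and Lsp1gamma were closest (0.78), then apolpp and Apoltp (1.001) and Fbp1 and Fbp2 (1.90). The farthest pair was Lsp1beta and Fbp1 (10.05).

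By the same measure, 6 other genes lay nearest to the summed level of the 4 Lsp genes among 6457 named genes with at least 10 CPM in wild type. The summed level was 11489 CPM for Canton S, 10420.0 for RAL-208, and 698 and 673 for the mutant. This sum hides strain differences, since Lsp2 was higher in Canton S and Lsp1beta in RAL-208. The nearest gene was Akh, which codes for adipokinetic hormone of the corpora cardiaca (distance 0.36, and a member of the nervous system list below), at 26.0 and 18.8 CPM against 0.354 and 0.111. With 4 and 3 reads in the mutant, Akh had a ratio of the wild-type mean to the mutant mean of 96.3. Next after Akh came CG14075 (0.38), CG1090 (0.50), fon (0.56), CG13023 (0.63) and dpr18 (0.69). The gene fon, which codes for a clotting protein of haemolymph, was at 143 and 188 CPM against 13.6 and 12.0.

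The genes nearest to Fbp2 were looked up after its values had been seen. Obp99b, an odorant-binding protein gene, also in the list of other fat body markers, had 643 CPM for Canton S, 32.3 for RAL-208, and 313 and 305 for the mutant (distance 0.14). NimC2, a gene of the Nimrod family of haemocyte receptors, was at 72.9, 1.86, 29.8 and 28.1 CPM (0.19). Both were thus lowest in RAL-208 and between the strains in the mutant, as Fbp2 was. The next were mt:ATPase6 (0.57), mt:Cyt-b (0.76), CG8100 (0.87) and mt:CoIII (0.98), and mt:CoII was the nearest to Fbp1 (1.15), with 317 CPM for Canton S, 2.54 for RAL-208, and 173 and 212 for the mutant. Those named mt are transcripts of the mitochondrial genome, and their part in the strain difference of Fbp1, Fbp2 and Lsp2 was not tested.

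**Figure D4:**
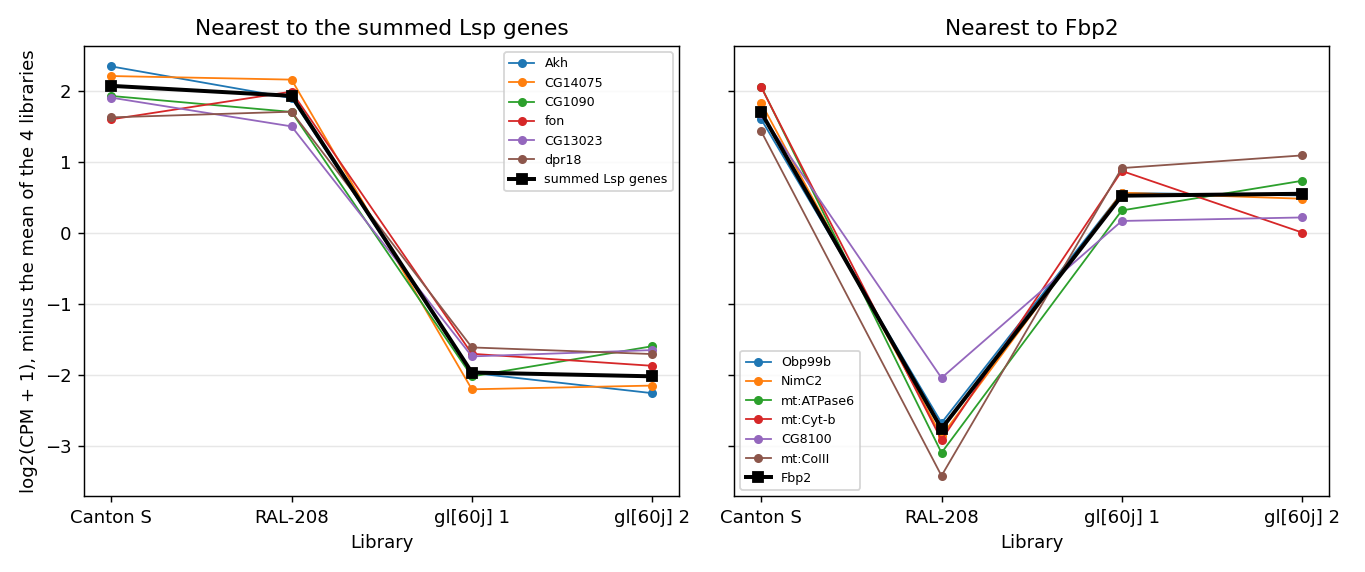
Values of log2(CPM + 1), minus the mean of the 4 libraries, for the summed Lsp genes with their 6 nearest genes (left) and for Fbp2 with its 6 nearest genes (right). Lines join the libraries of a gene. On the left both strains are high and both mutant libraries low, and on the right RAL-208 is the lowest library.

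Of the other genes of fat body function, 0 were called by edgeR with summed mutant libraries. Some rare ones had a ratio of the wild-type mean to the mutant mean inside the range of the 5 lower genes, 7.21 to 113. Idgf5 was at 25.5 (5.20 and 5.34 CPM in wild type against 0.266 and 0.148 in the mutant) and Odc1 at 10.7 (5.69 and 4.405 against 0.354 and 0.592). Counts from edgeR with 4 separate libraries are given as a description, beside 11.3% lower and 8.05% higher over all tested genes. Of the relatives of hexamerins, which are prophenoloxidases, PPO2 was called higher (57.0 and 38.9 CPM in wild type against 109 and 111 in the mutant), and PPO3 was not called. Among partners of lipoproteins, the lipophorin receptor genes LpR1 (57.0 and 46.7 CPM in wild type against 38.6 and 42.7 in the mutant) and LpR2 (193 and 187 against 166 and 161) were not called, and 1 of 3 tested was called lower. This was Cow, whose product is a secreted proteoglycan that binds Wingless and is not a lipid carrier.

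In the list of fat storage enzymes and their regulators, 1 of 13 tested was called lower and 2 higher, with a median log2 fold change of -0.35 against 0.0014 over all tested genes. The lower one was the fatty acid desaturase gene Desat1 (352 and 364 CPM against 252 and 251), and the higher ones SREBP (185 and 202 against 252 and 254) and the carnitine palmitoyltransferase gene whd. Of 8 sugar storage genes 3 were called lower, namely the gluconeogenic gene Pepck1 (158 and 248 CPM against 89.3 and 86.5), the trehalose synthesis gene Tps1 (16.1 and 25.2 against 3.10 and 2.70) and the hexokinase gene Hex-C. The gluconeogenic gene fbp was called higher (60.9 and 57.4 against 76.5 and 77.0).

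Secreted proteins of fat body were called lower in 7 of 21 tested genes and higher in 1, with a median of -0.37. Among the lower ones were the imaginal disc growth factor genes Idgf6 (170 and 364 CPM against 76.5 and 73.1) and Idgf3 (54.0 and 50.0 against 31.2 and 30.7) and the TNF gene egr. ImpL2, which codes for a secreted binder of insulin-like peptides, was the higher one (222 and 192 against 343 and 334). Both mutant libraries lay below both strains in 10 of 21 secreted proteins, 9 of 13 fat storage genes and 4 of 8 sugar storage genes. So they did in 5 of 10 other fat body markers and 11 of 21 regulators of fat body genes. Above both they lay in 4, 3, 2, 3 and 5 of these, in the same order. Over all tested genes the shares were 41% and 26.2%. The female yolk protein genes Yp1, Yp2 and Yp3, used by adult fat body, stayed at or below 1.16 CPM in each library. Of 10 tested other fat body markers, 4 were called lower, led by regucalcin (530 and 872 CPM against 212 and 223), and 1 higher (CG17108). The other lower ones were Sardh, Ddc and Odc1. The summed level of that list was 1293 CPM for Canton S, 1055 for RAL-208, and 662 and 669 for the mutant. Most of it in each library was Obp99b and regucalcin, which differed between the strains in opposite directions. Obp99b had 643 CPM for Canton S and 32.3 for RAL-208. Listericin, not called, was at 1.40 and 0 CPM in wild type against 11.9 and 12.0 in the mutant. Whether the genes of that list or of the other fat body lists are particular to fat body was not tested. They are not read as a measure of that tissue. Of the other fat body markers, Adh and Uro had 0 reads in all 4 libraries, which allows up to 0.248, 0.254, 0.266 and 0.111 CPM by counting error. In the BDGP6 annotation 93.9% of the exon bases of Adh are shared with Adhr, also at 0 reads, so the level of Adh cannot be read from these counts.

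Regulators of fat body genes were called lower in 4 of 21 tested genes and higher in 1, with a median of -0.07 on the log2 scale. The fat body and haemocyte GATA factor gene srp was at 38.2 and 42.4 CPM against 23.7 and 21.9, and svp, cbt and REPTOR were the other lower ones. The nuclear receptor gene Hr39 was called higher (238 and 215 against 278 and 272). In the list of ecdysone targets, 6 of 15 were called higher and 2 lower. ImpE2 led the higher ones at 2405 and 1998 CPM against 5118 and 4906, and the lower ones were Eip74EF and ftz-f1. Between the strains 0 of these 15 were at least 2-fold higher in Canton S, against 2.9% of all tested genes, and 1 in RAL-208, against 2.89%. By the same rule, Canton S was higher in 4 of 21 secreted proteins, 2 of 13 fat storage genes and 2 of 10 other fat body markers. RAL-208 was higher in 1, 0 and 0 of them. Regulators of fat body genes had 1 of 21 in each direction. Sugar storage genes, relatives of hexamerins and partners of lipoproteins had 0 in either. Antibacterial and other immune genes of fat body were near 0 for the most part, with 7 of 26 passing the filter and 1 of these, AttA, called higher (0.248 and 0.932 CPM against 8.06 and 7.58). Their summed level was 199 CPM for Canton S, 77.6 for RAL-208, and 132 and 124 for the mutant, the order of libraries seen for Fbp1 and Fbp2. Of the 7, 3 were at least 2-fold higher in Canton S than in RAL-208 (2.9% of all tested genes). The mutant lay between the strains in 2 of the 7 (15.9%), above both in 3 (26.2%) and below both in 2 (41%). Most of the sum was TotA in Canton S (113, 20.7, 51.6 and 50.4 CPM over the libraries) and Spn28Dc in RAL-208 (63.5, 44.5, 43.4 and 38.8 CPM).

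Markers of other larval tissues and cell types were listed beside these results, and their counts below both strains stand against 41% over all tested genes. Whether their reads came from outside the disc was not tested. Nervous system markers were below both strains in 17 of 17 tested genes, with summed levels of 1719 and 1856 CPM in wild type against 825 and 822 in the mutant. The most abundant were unc-13 (760.2 and 663 against 438 and 441), elav and Cadps. Larval cuticle genes were below both in 6 of 8 (55.0 and 130.03 CPM against 9.39 and 9.58), haemocyte markers in 12 of 15 (1354 and 2091 against 1219 and 1199) and muscle markers in 5 of 15 (1638 and 2353 against 1536 and 1508). In the 3 most abundant haemocyte markers the mutant lay between the strains for Ppn and Hml and below both for Col4a1, and in those of muscle between for Msp300 and Tm1 and below both for sls. Their part in the lower Lsp1, apolpp and Apoltp levels of the mutant was not tested. Cpr49Aa of the cuticle list had 0 reads throughout, and no gene of the nervous system, haemocyte or muscle lists did. Glia and trachea markers were below both strains in 6 of 9 and 2 of 8 tested genes, at 920 and 914 CPM against 933 and 918 for glia and at 3391 and 3333 against 3929 and 3958 for trachea. Above both strains were 2 of 9 and 6 of 8 (26.2% of all tested genes). Most of the glia sum was Gli (435 and 374 against 568 and 564) and nrv2 (301 and 319 against 252 and 251). The sums hide rarer genes that were far lower, Eaat1 of glia (33.3 and 47.4 against 3.28 and 4.10) and trh of trachea (18.5 and 31.6 against 4.69 and 4.73).

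Salivary gland markers were at least 2-fold higher in Canton S than in RAL-208 in 7 of 12 tested genes (2.9% of all tested genes) and at least 2-fold higher in RAL-208 in 1 (2.89%). The latter was ng3, at 2.06 CPM for Canton S, 15.8 for RAL-208, and 0.797 and 0.813 for the mutant. The rare genes ng1, ng2 and Pig1 of this list did not pass the filter and are not in these counts. They too were higher in RAL-208, with 17, 60 and 74 reads against 3, 3 and 5 in Canton S. The list had summed levels of 391 CPM for Canton S, 268 for RAL-208, and 443 and 428 for the mutant. The sum was thus highest in the mutant, although in 8 of the 12 the mutant lay between the strains (15.9% of all tested genes). The largest part of the sum in each library was CrebA, a secretory regulator also used outside salivary glands, at 192, 157, 314 and 297 CPM. The glue gene Sgs7 was at 48.5, 13.9, 24.9 and 24.7 CPM and Sgs3 at 34.9, 10.3, 24.0 and 27.3 CPM, and the list's member ng4 had 0 reads in every library. Haemocyte, muscle and cuticle markers were at least 2-fold higher in RAL-208 in 5 of 15, 4 of 15 and 5 of 8 tested genes (2.89% of all tested genes), as Lsp1beta and Apoltp were. Their part in the strain difference of the storage and fat body genes was not tested.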

How the data were processed

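Libraries from total RNA of eye-antennal discs, 4 in number, followed an Illumina TruSeq workflow according to the labels' protocols. The submitters' processing notes name CASAVA 1.8, TopHat2 2.0 and HTSeq, with genome build dm3. They do not give the counting mode, the strand setting or the annotation counted. The authors deposited whole-number read counts per FlyBase gene without normalization. The 5 summary lines of each table, 23.3% to 25.6% of its total, were left out. Symbols, coding lengths and exon overlap came from BDGP6, which matched 13746 identifiers, and no coordinates are used because that build is not dm3. No sequences of the 8 genes are printed.

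Genotypes were compared with edgeR 4.0.16 in R 4.3.3 (TMM scaling, filterByExpr on the 4 libraries at a minimum count of 10, quasi-likelihood test, Benjamini-Hochberg adjustment over all tested genes at 0.05), with the mutant libraries summed. The lone mutant sample is assumed to vary like the wild types. Standard errors are the log2 fold change divided by the square root of the F statistic. DESeq2 1.42.0, limma-voom (limma 3.58.1), other scalings, no filter and leaving out each library were tried, and the edgeR fits were run on simulated data. The simulation gave all genes the same spread, unlike the strain differences seen here. It required only that fitted fold changes match those put in, so it does not check the calls. Folds are ratios of CPM without TMM scaling. Intervals of ratios are exact binomial at 95%, with a floor of 3 reads for genes at 0, and reads are not independent molecules. Where nothing states separate cultures or animals, p-values measure only the spread between these samples. The 8 genes, the lists and the rules for naming genes (all 8, the 6 nearest genes, up to 4 called genes per list by wild-type CPM, and for other tissues up to 3 of highest CPM) were chosen with earlier results of these data known. LpR1, LpR2, PPO3, CG17108, Listericin, TotA, Spn28Dc, srp, ftz-f1, Idgf5, ng1, ng2, ng3, Pig1, Eaat1, trh, the yolk protein genes, ey, so, Dll, genes at 0 reads and the genes nearest to single members fall outside the rule and were named after their values were seen. List entries without a matching symbol are not analysed here.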

Additional observations from a re-analysis of the deposited data

How the results depend on the processing

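The counts of calls depended on the tool and on how the technical replicates entered. Of the 8 genes 0 were called with summed mutant libraries, 5 with 4 separate libraries (1754 of all genes) and 5 with DESeq2 (540 of all genes). Limma-voom, no filter, other scalings and the 8 genes left out of totals again gave 0. Leaving out 1 library gave from 0 to 8 calls among the 8 genes and from 0 to 5349 among all genes. With 4 separate libraries it was 8 of 8 (5 lower and 3 higher) without Canton S and 8 of 8 (all lower) without RAL-208, where 4306 of all genes were called and the spread came from technical replicates alone. The 5 genes at least 2-fold lower than both strains were 8 without RAL-208, and 5 to 8 over all libraries left out in turn. With a threshold of 4-fold in place of 2-fold they were 4. The log2 fold change turned from negative to positive without Canton S for Lsp2 (1.02), Fbp1 (5.11) and Fbp2 (3.44 with summed and 3.43 with separate mutant libraries), and in limma-voom for Fbp1 (1.55) and Fbp2 (1.17), and the cause was not tested. Without RAL-208 these values were -3.09 for Lsp2, -2.01 for Fbp1 and -1.09 for Fbp2. The summed fit without a wild-type library has no residual degrees of freedom, so its values carry no test. The ratio of 5.68 for the summed level was 4.18 without Canton S and 7.17 without RAL-208, which restates the strain difference. No paired analysis was possible because the labels number the mutant libraries alone.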
